A study of Mus musculus with 6 samples.

Results

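Matrix metalloproteinase (Mmp), Adamts protease and Timp inhibitor genes were followed in the developing mouse tongue with and without Tgfbr2 in the neural crest. The members were all genes read by a probe set that the platform annotation gives a single gene symbol made of Mmp and a number (with or without a letter), Adamts and a number, or Timp and a digit. These were 37 genes of 18193 genes in all, 18 of them Mmp, 15 Adamts and 4 Timp genes, read by 70 probe sets. Each gene was represented by its brightest probe set, judged by the mean of the 6 arrays. The rule itself used no expression difference, but it was set with earlier results of these data known.

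Total RNA from C57BL/6J tongues at embryonic day 14.5 was hybridised to 6 Affymetrix arrays, to find genes that depend on TGF-beta signalling while the tongue muscles form. The 3 mutants were Tgfbr2 fl/fl; Wnt1-Cre, and the 3 controls were Tgfbr2 fl/fl without Cre, although their titles call them wildtype. Tgfbr2 is the gene of the type II TGF-beta receptor, and Wnt1-Cre deletes floxed genes in the neural crest and its descendants, which form the connective tissue of the tongue but not its muscle fibres or epithelium. The labels call the material both tongue and tongue mesenchyme and do not say whether the embryos came from separate litters, so the p-values cover only the spread among the 6 tongues, which may be technical.

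Mmps are zinc proteases that are made as inactive precursors and cut collagens and other proteins of the extracellular matrix, either after secretion or while anchored in the cell membrane. Adamts proteases are secreted zinc proteases with thrombospondin repeats. Some cut proteoglycans such as versican and aggrecan, and others trim procollagens or act on microfibrils. Timps are secreted proteins that bind and block Mmps, and Timp3 also blocks several Adamts proteases. In embryonic tissues these genes are known mainly from mesenchymal cells that remodel the matrix around growing muscle, vessels and epithelium, and TGF-beta is a known regulator of several of them.

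Values are log2 expression. Genes whose mean over the 6 arrays lay in the lowest 25% (under 5.17) were not tested, which left 13645 genes and 28 of the 37 members. A gene was called when limma's adjusted p was under 0.05. Mutant array 1 stood apart from the others: it lay at -39.1 on the first principal component, with the other mutants at -6.91 and -2.87 and the controls between 9.29 and 20.04. Differences of members that it moved by over 1.5 times are given with and without it. Tgfbr2 itself differed by -0.18 (standard error 0.18, adjusted p = 0.642, limma), and its values do not check the genotype, because the sources used here do not say whether a probe lies in the deleted part and muscle fibres and epithelium retain an intact gene.

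Epithelial markers, which mesenchyme lacks, were read well above the filter on every array. The mean log2 level of 6 epithelial genes was 11.13 to 11.92 in the mutants and 10.77 to 10.92 in the controls. For 7 skeletal muscle genes it was 10.50 to 11.08 against 11.17 to 11.66. For 9 macrophage genes it was 7.86 to 7.93 against 7.53 to 7.78, and for 5 genes of nerve and glia 6.92 to 7.43 against 6.79 to 6.86. Called among these lists were the muscle gene Actn3 and the macrophage gene Mrc1 (lower) and the macrophage genes C1qa, C1qb and C1qc and the neuronal gene Stmn2 (higher). These 4 lists did not overlap between the groups, and their part in the results below was not tested. In bulk tissue, fewer cells of a type and less RNA per cell cannot be told apart. Fibroblast markers overlapped (10.70 to 11.01 against 10.72 to 10.98), with Dcn and Lum called higher, as did cartilage and bone markers (6.10 to 6.30 against 6.28 to 6.43), with Col9a1 called higher and Dmp1 lower. Each of these 10 marker calls was lost without control array 2 and without control array 3. Those of C1qb, C1qc, Stmn2, Dcn, Col9a1 and Dmp1 were also lost with sex as a covariate (adjusted p between 0.0592 and 0.112, limma). Smooth muscle and pericyte markers also overlapped (7.47 to 8.03 against 7.68 to 7.91). Of 6 neutrophil markers 4 lay under the filter, as did 3 of 5 osteoclast markers.

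The members read under the filter in this tongue were mostly neighbours on 1 chromosome. Of the 9 members under the filter, 7 belong to a run of 10 adjacent Mmp genes on chromosome 9 (RefSeq order, GRCm38.p6), with no other protein-coding gene between them: Mmp13, Mmp12, Mmp1b, Mmp3, Mmp1a, Mmp10, Mmp8, Mmp27, Mmp20 and Mmp7. This run holds the collagenase genes (Mmp13, Mmp8, Mmp1a, Mmp1b), the stromelysins Mmp3 and Mmp10, matrilysin (Mmp7), the macrophage elastase Mmp12 and the enamel protease Mmp20. Mmp27 is not analysed here, nor are Mmp15, Mmp21, Mmp25, Mmp28, Adamts2, Adamts13, Adamts14 and Adamts17, for which no probe set with a single symbol was found among those used. Only Mmp10 and Mmp7 of the run were tested, against 26 of the 28 members that lie elsewhere; the exceptions there were Mmp19 and Adamts19. Mmp13 averaged 3.13 in the controls and 3.09 in the mutants, and Mmp8 3.96 and 4.09. Mmp3, the untested member nearest to the filter with a mean of 4.95, was between 4.80 and 4.93 in the controls and between 5.01 and 5.08 in the mutants, and Mmp10, the nearest tested one, had a mean of 5.35.

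The promoters of this run differed in letters from those of the other members. They are shown for 4 genes, each as the 250 bases before the annotated start, 5′ to 3′ on the gene's strand, from RefSeq sequence of GRCm38.p6: a collagenase and a stromelysin gene of the run, and the 2 called Adamts genes that lie elsewhere. Capitals mark matches, on either strand, to TGANTCA (the site of AP-1, a known activator of Mmp genes), TATAAA (the TATA box) and CAGACA (letters that Smads, the transcription factors of TGF-beta, can bind); no 2 printed matches overlap, and the windows of Adamts20 and Adamts18 hold none.
Mmp13, chr9:7272264-7272513, plus strand: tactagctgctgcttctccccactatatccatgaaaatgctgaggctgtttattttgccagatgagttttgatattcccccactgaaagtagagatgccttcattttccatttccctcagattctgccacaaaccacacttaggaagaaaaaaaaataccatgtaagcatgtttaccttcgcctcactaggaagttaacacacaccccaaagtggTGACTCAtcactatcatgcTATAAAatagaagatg
Mmp10, chr9:7502092-7502341, plus strand: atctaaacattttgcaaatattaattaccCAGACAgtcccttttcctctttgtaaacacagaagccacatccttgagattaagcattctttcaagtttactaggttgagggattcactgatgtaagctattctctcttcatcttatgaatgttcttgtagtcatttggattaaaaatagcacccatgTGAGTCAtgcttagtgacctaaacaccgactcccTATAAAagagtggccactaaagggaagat
Adamts20, chr15:94404351-94404600, minus strand: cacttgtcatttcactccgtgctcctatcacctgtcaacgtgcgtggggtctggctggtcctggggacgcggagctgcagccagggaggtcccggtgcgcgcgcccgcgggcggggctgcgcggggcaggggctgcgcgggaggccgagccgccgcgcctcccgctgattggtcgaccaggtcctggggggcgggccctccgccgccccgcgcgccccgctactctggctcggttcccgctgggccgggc
Adamts18, chr8:113848840-113849089, minus strand: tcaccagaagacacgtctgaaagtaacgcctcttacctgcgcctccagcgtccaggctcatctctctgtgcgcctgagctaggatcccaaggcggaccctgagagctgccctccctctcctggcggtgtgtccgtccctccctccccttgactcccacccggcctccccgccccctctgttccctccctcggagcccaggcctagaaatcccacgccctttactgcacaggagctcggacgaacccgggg

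Promoter windows were listed for 23 of the 37 members, 26 windows in all. TGANTCA stood in 8 of the 11 windows of the chromosome 9 run and in 0 of the 15 windows of other members, against 6.75% of all 32851 windows of this length. TATAAA stood in 7 of 11 and 1 of 15 (that of Adamts1), against 12.4% of all. CAGACA stood in 5 of 11 and 0 of 15, against 17.1% of all. The run's windows had a median G and C content of 40.4%, the other members' 65.2% and all windows 52.4%. A match describes letters only, and windows of neighbouring family members share ancestry.

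**Figure D1:**
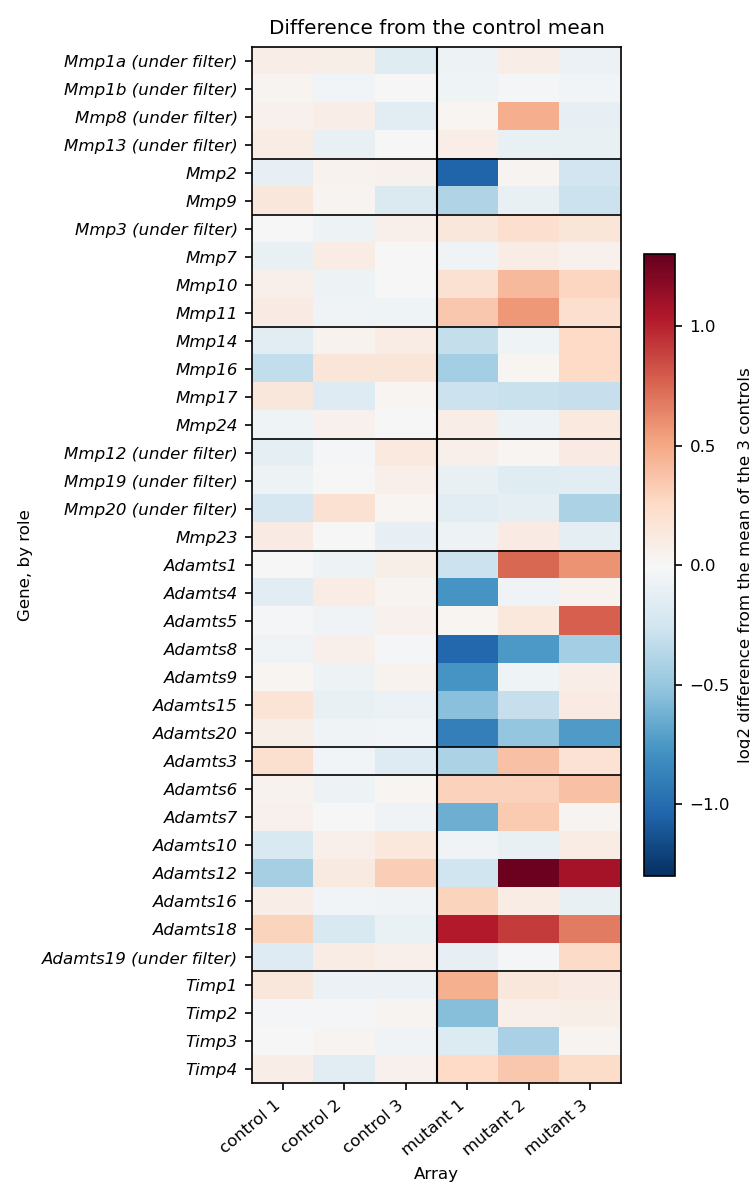
Each of the 37 genes (rows, grouped by role) on each of the 6 arrays (columns), as the log2 difference from the mean of the 3 controls (red higher, blue lower). Adamts18 is red and Adamts20 and Adamts8 are blue on all 3 mutant arrays, whereas Adamts1 and Adamts12 are red on mutant arrays 2 and 3 and blue on mutant array 1.

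Across the tested members, loss of the receptor gene went with few changes, and these were in the Adamts family and ran both ways. Of the 28 tested members 1 rose (Adamts18) and 1 fell (Adamts20), 7.14% called, against 2.14% of all 13645 tested genes (1.32% higher and 0.821% lower). The groups did not overlap for 8 of 28 members, or 28.6%, close to the 25.1% of all tested genes. Members lay wholly above the controls in 5 cases (17.9% against 13.6% of all tested genes) and wholly below in 3 (10.7% against 11.5%). An unadjusted p under 0.05 was found for the same share of members, 28.6% (5 higher, 3 lower), against 16.9% of all tested genes. Of the 28 differences 15 were below 0, or 53.6%, against 46.6% of all tested genes. The median log2 difference of the tested members was -0.022 (range -0.74 to 0.87), beside 0.016 for all tested genes. Of the tested members 12 have another probe set above the filter, 20 in all, and 16 of these had the same sign as the one used.

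**Figure D2:**
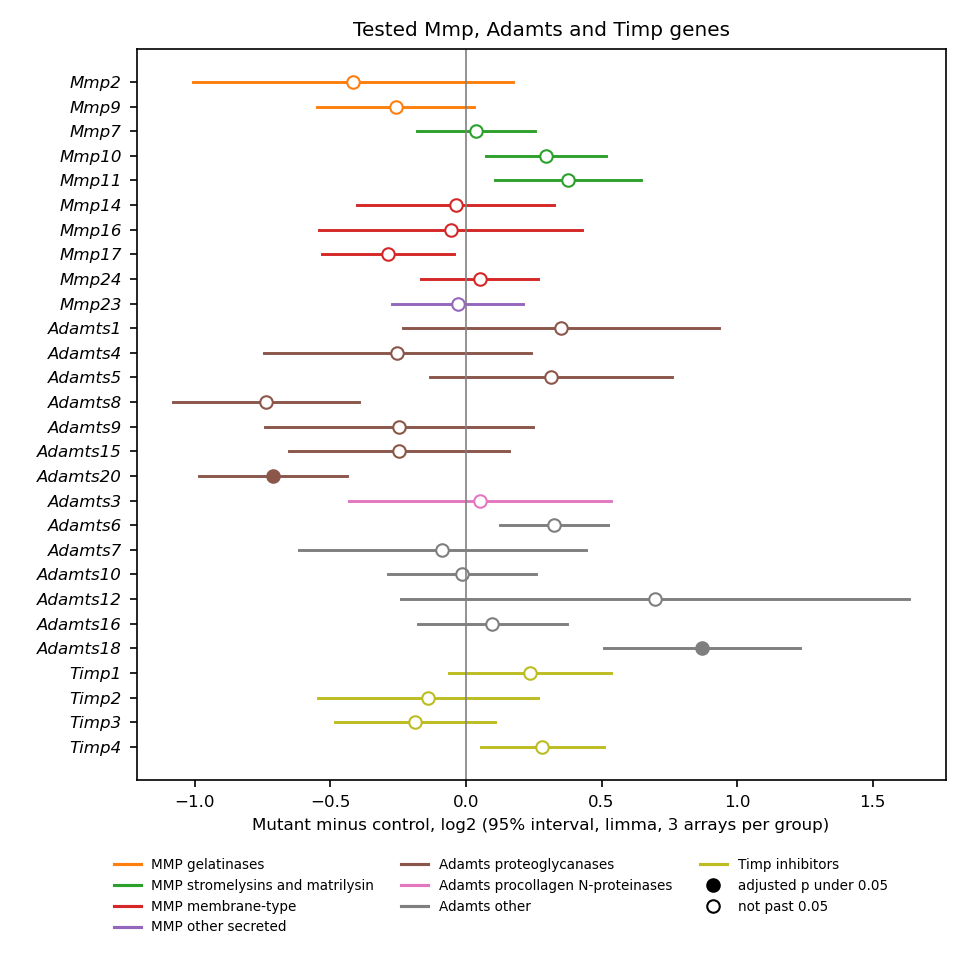
Log2 difference between mutants and controls (horizontal axis) for the 28 tested members, with 95% intervals from limma and 3 arrays per group; colours give the role and filled points passed an adjusted p of 0.05. Only Adamts18 (0.87) and Adamts20 (-0.71) are filled, and the interval of Adamts8 (-1.08 to -0.39) also lies below 0.

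Adamts20, a versican-cutting protease known for its role in pigment cell survival and, with Adamts9, in palate closure, fell in the mutants. It was 7.86, 8.25 and 8.02 on mutant arrays 1, 2 and 3 and 8.83, 8.71 and 8.72 on the controls. All 3 mutants lay below all 3 controls, and the mutants were more spread than the controls. The means were 8.04 ± 0.20 and 8.75 ± 0.067 (SD, n = 3 per group), which gives a difference of -0.71 (standard error 0.12, adjusted p = 0.0297, limma), or 1.64-fold lower. Only 1 probe set reads it. The difference was -0.62 without mutant array 1 (adjusted p = 0.0173). The call was lost without mutant array 3 (adjusted p = 0.0626) and without control arrays 1, 2 or 3 (0.115, 0.149 and 0.151), with differences between -0.67 and -0.73.

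Adamts18, an Adamts protease known from eye, lung and other branching organs, was the member that rose. Its values were 8.14, 8.02 and 7.78 in the mutants and 7.39, 6.90 and 7.02 in the controls, so the lowest mutant lay above the highest control. The means were 7.98 ± 0.18 and 7.10 ± 0.25 (SD, n = 3 per group), which gives a difference of 0.87 (standard error 0.15, adjusted p = 0.0373, limma), or 1.83-fold higher. A further pair of probe sets, both under the filter, was also higher on every mutant array, by 0.70 and 0.49. The mean of all its probe sets differed by 0.69 and missed the threshold (adjusted p = 0.0532). The call was also lost without mutant array 2 (adjusted p = 0.124) and without control arrays 2 or 3 (0.175 and 0.189), with differences between 0.77 and 0.85. It was kept without mutant array 1 (0.79, adjusted p = 0.0385).

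Sex was unbalanced over the arrays: Xist, transcribed from the inactive X in females, was high on mutant arrays 1 and 3 and control array 1. With sex as a covariate neither gene passed, at log2 differences of -0.68 for Adamts20 (adjusted p = 0.0811) and 0.81 for Adamts18 (0.0898), and 0.989% of all tested genes did. No other member passed there. An unadjusted p under 0.05 was found for 9 members (32.1%, limma), and the share of all tested genes under it was not taken in that fit.

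Adamts20 was the 1 called gene among the 7 proteoglycan-cutting Adamts genes, all tested. With all arrays 5 of the 7 had a negative difference and the median was -0.25, and without mutant array 1 these were 3 of 7 and 0.0028. Adamts8, a protease able to cut aggrecan and to restrain vessel growth, came closest to a call. It was 5.92, 6.19 and 6.49 in the mutants and 6.89, 7.00 and 6.92 in the controls. The groups did not overlap and the log2 difference was -0.74 (standard error 0.15, adjusted p = 0.0551, limma). Pairing the arrays by their title number brought it under the threshold (adjusted p = 0.0375, with 3.59% of all tested genes called), as did centring the arrays on their median (0.0467), averaging the probe sets of each gene (0.0427) and leaving out mutant array 1 (0.0279) or mutant array 3 (0.0306). With sex as a covariate its adjusted p was 0.132. It also missed the threshold without mutant array 2 and without control arrays 1, 2 or 3. The same held without the filter, with further quantile normalization, with another variance model and with every probe set tested. Adamts8 thus passed in 6 of 15 alternatives, array quality weights among them, with adjusted p up to 0.251 (limma). It has 1 probe set.

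Adamts1, a versican and aggrecan protease of developing vessels and ovary, was split among the mutants. It was 9.18 on mutant array 1 and 10.21 and 10.05 on mutant arrays 2 and 3, with controls at 9.46, 9.39 and 9.54. Mutant array 1 thus lay below every control and the other mutants above them. Over all arrays the difference was 0.35 (standard error 0.25, adjusted p = 0.517, limma), and without mutant array 1 it was 0.67 (standard error 0.088, adjusted p = 0.0109).

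Adamts5, the main aggrecan-cutting enzyme of cartilage, was 9.16, 9.27 and 9.91 in the mutants and 9.12, 9.09 and 9.20 in the controls, a difference of 0.31 (adjusted p = 0.453, limma). On this probe set the high value came from mutant array 3. Another was higher on every mutant array (9.07, 9.09 and 9.56 against 8.91, 8.81 and 8.90). Its difference was 0.36 (adjusted p = 0.298, limma, when every probe set was tested). The remaining Adamts5 probe set above the filter gave 0.28, with overlap. Adamts9, the versican protease that acts with Adamts20, was 8.18, 8.89 and 9.03 in the mutants and 8.97, 8.88 and 8.99 in the controls. Only mutant array 1 was apart, and the difference of -0.25 (adjusted p = 0.593) became 0.016 without it. Adamts4 (-0.25, adjusted p = 0.581) likewise gave 0.0028 without mutant array 1. Adamts15 gave -0.25 (adjusted p = 0.510), and -0.097 without that array.

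Among the remaining Adamts genes, Adamts12 and Adamts6 had the widest differences after Adamts18. Adamts12, a protease that cuts the cartilage protein COMP, was 7.78, 9.32 and 9.12 in the mutants and 7.61, 8.16 and 8.36 in the controls. Mutant arrays 2 and 3 exceeded every control, while array 1 of each group was the lowest of its group. The difference was 0.70 (standard error 0.40, adjusted p = 0.429, limma) and 1.18 without mutant array 1 (standard error 0.21, adjusted p = 0.0288). The mean of its probe sets gave 0.37 over all arrays, but its other probe set lay under the filter (mean 3.15, difference 0.046). Adamts6, a protease that acts on microfibrils and is needed for heart development, was 6.26, 6.25 and 6.34 in the mutants and 6.00, 5.89 and 5.98 in the controls. The groups did not overlap, with a small difference of 0.32 (standard error 0.085, adjusted p = 0.119). Adamts3, a procollagen trimming enzyme, Adamts7, Adamts10 and Adamts16 had differences between -0.086 and 0.098 and adjusted p of at least 0.708. Without mutant array 1 these 4 gave 0.28 (Adamts3), 0.19 (Adamts7), 0.0029 (Adamts10) and 0.0022 (Adamts16). A second Adamts16 probe set, above the filter, was 5.45, 5.66 and 5.57 in the mutants and 5.17, 5.03 and 5.21 in the controls, a difference of 0.43 with no overlap (adjusted p = 0.110 when every probe set was tested).

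**Figure D3:**
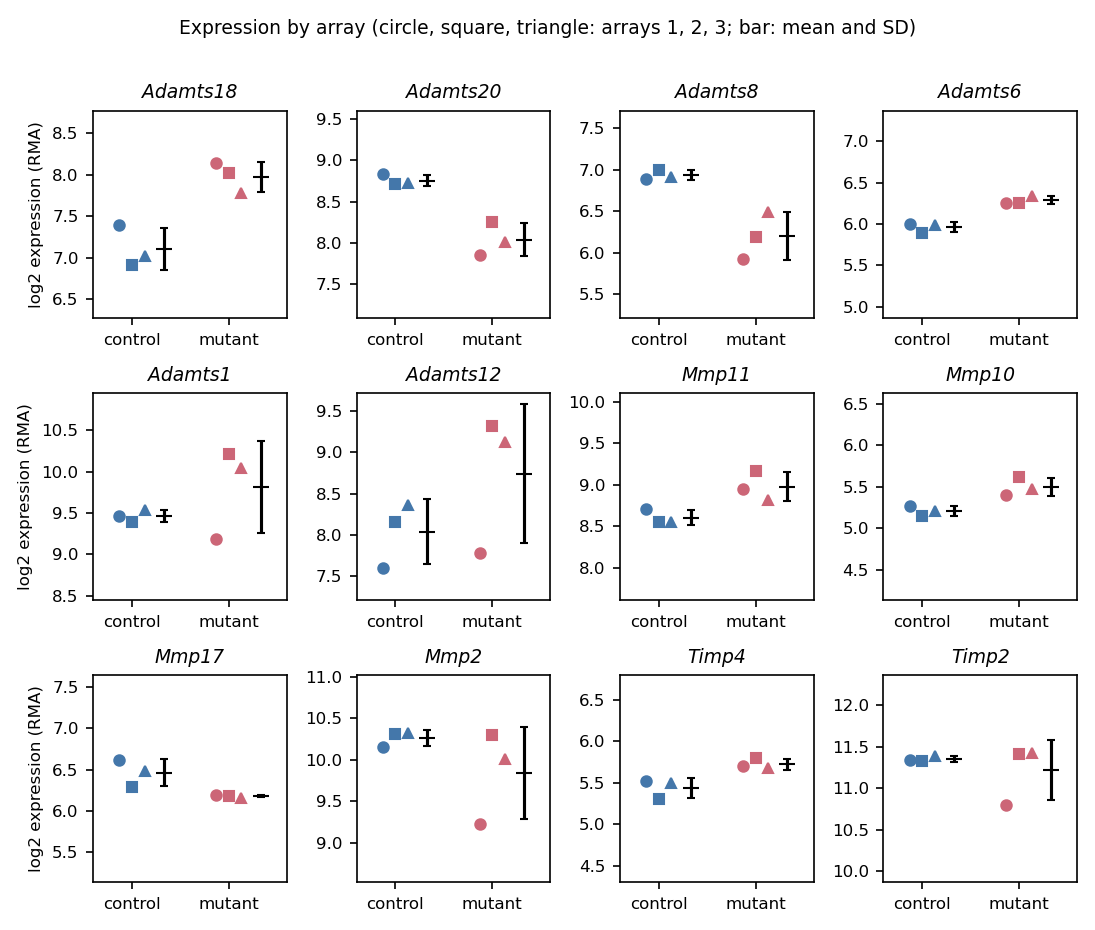
Log2 expression (vertical axes, all spanning the same range) of 12 members on each array, with controls in blue and mutants in red; symbols mark arrays 1 to 3 and bars the mean and SD of 3 arrays. Adamts18, Adamts20, Adamts8, Adamts6, Mmp11, Mmp10, Mmp17 and Timp4 do not overlap between the groups, whereas mutant array 1 lies apart from mutant arrays 2 and 3 for Adamts1, Adamts12, Mmp2 and Timp2.

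No Mmp gene passed the test. Of the 10 tested, 3 had an unadjusted p under 0.05 (limma), 2 higher and 1 lower, against 16.9% of all tested genes. The median difference was -0.034, or 0.055 without mutant array 1. With array quality weights Mmp10 and Mmp11 passed, where 7.58% of all tested genes did.

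The gelatinases degrade denatured collagen and basement membrane collagen. Mmp2, the gelatinase of mesenchymal cells, was 9.22, 10.30 and 10.02 in the mutants and 10.15, 10.31 and 10.32 in the controls. The groups overlapped and mutant array 1 was far below the rest. The difference was -0.42 (standard error 0.25, adjusted p = 0.450), and -0.11 without mutant array 1; another probe set gave -0.38. Mmp9, the gelatinase of osteoclasts and white blood cells, was 5.38, 5.67 and 5.49 against 5.92, 5.81 and 5.59, a difference of -0.26 (adjusted p = 0.342). A dimmer probe set of Mmp9, under the filter, gave 0.059.

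The stromelysins were slightly higher on every mutant array. Mmp11, or stromelysin-3, an Mmp of stromal cells that furin activates inside the cell, was 8.95, 9.17 and 8.82 in the mutants and 8.71, 8.55 and 8.55 in the controls. Its difference of 0.38 (standard error 0.11) missed the threshold (adjusted p = 0.162). Mmp10, or stromelysin-2, whose promoter is printed above, was 5.40, 5.62 and 5.48 against 5.26, 5.14 and 5.20, a difference of 0.30 (standard error 0.095, adjusted p = 0.179). Neither gene's groups overlapped. Mmp7, matrilysin, known from epithelia, gave 0.037 (adjusted p = 0.872), and 0.077 without mutant array 1.

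The membrane-type Mmps act at the cell surface, and Mmp14 activates the Mmp2 precursor together with Timp2. Mmp14 was 9.99, 10.24 and 10.56 in the mutants and 10.16, 10.35 and 10.40 in the controls. The groups overlapped fully, and the difference was -0.038 with a 95% interval of -0.40 to 0.32 (adjusted p = 0.924); it was 0.10 without mutant array 1. Mmp17, an Mmp held in the membrane by a lipid anchor, was 6.19, 6.18 and 6.16 in the mutants and 6.61, 6.29 and 6.49 in the controls. Every mutant lay below every control, with a difference of -0.29 (standard error 0.10, adjusted p = 0.226). Mmp16 and Mmp24 gave -0.055 and 0.051, and Mmp23, a small membrane-bound Mmp, -0.029. Without mutant array 1 the 3 differences were 0.14, 0.033 and -0.013. Mmp16 probe sets almost as bright as the one used (means 7.81 and 7.77, against 7.81) gave 0.0018 and -0.39, and a dim one, under the filter, -0.40. Mmp23 also has another probe set above the filter, at -0.20. The groups overlapped on each of these. A second Mmp24 probe set was higher on every mutant array (5.92, 5.72 and 5.77 against 5.64, 5.40 and 5.70). Its difference was 0.22 (adjusted p = 0.398, limma, when every probe set was tested).

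No Timp passed either, and 1 of the 4 had an unadjusted p under 0.05 (limma), against 16.9% of all tested genes. Timp4, an inhibitor known from heart and skeletal muscle, was 5.70, 5.79 and 5.68 in the mutants and 5.52, 5.30 and 5.50 in the controls. The groups did not overlap, and the difference was 0.28 (standard error 0.097, adjusted p = 0.208), or 0.38 when its probe sets were averaged (adjusted p = 0.0714). Timp1, the TGF-beta and cytokine-inducible inhibitor, was 8.30, 7.98 and 7.94 against 7.99, 7.76 and 7.76. The highest value was that of mutant array 1, and the difference was 0.24 (adjusted p = 0.400), or 0.12 without it.

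Timp2, which both blocks Mmps and helps Mmp14 to activate Mmp2, was 10.80, 11.42 and 11.43 in the mutants and 11.34, 11.33 and 11.39 in the controls. Its difference was -0.14 (adjusted p = 0.721, limma) and 0.071 without mutant array 1, the only low array on this probe set. Timp3, the matrix-bound inhibitor, was 9.53, 9.29 and 9.75 against 9.72, 9.75 and 9.67, a difference of -0.19 (95% interval -0.48 to 0.11, adjusted p = 0.492). Its other 3 probe sets gave -0.27, -0.15 and -0.27.

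Mutant array 1 was the lowest of the 6 arrays for 13 of the 28 tested members, or 46.4%, against 32.6% of all tested genes. The median of the members relative to the control mean was -0.27 on mutant array 1 and 0.081 and 0.10 on mutant arrays 2 and 3. Without mutant array 1, 8 rather than 15 of the 28 differences lay below 0 (28.6%, against 45.6% of all genes tested in both fits), and 7 changed sign (25%, against 18.9% of those genes). These were Adamts4, Adamts7, Adamts9, Adamts10, Mmp14, Mmp16 and Timp2. Without it 3 members rose (Adamts1, Adamts12 and Adamts18) and 2 fell (Adamts8 and Adamts20), 17.9% of the 28 members tested there, against 4.91% of all genes tested. With mutant array 2 left out 1 member was called (0.674% of all genes), and with mutant array 3 left out 2 (1.78%). With control array 1 left out 1 was called (1.03%), and with control array 2 or 3 left out 0 (0.11% and 0.132%). In the last 2 fits 6 and 8 members had an unadjusted p under 0.05 (limma), and the shares of all genes under it were not taken. With averaged probe sets 2 members were called (2.39% of all genes), with centred arrays 3 (2.06%), and with array quality weights 8 (7.58%). These 8 were Adamts18 and Adamts20 with Adamts1, Adamts6, Adamts8, Adamts12, Mmp10 and Mmp11. At an adjusted p under 0.1 Adamts8 joined the 2 called members (4.02% of all genes). Marker lists stood apart on mutant array 1 too. Relative to the control mean, the median of the endothelial markers was -0.97 on mutant array 1 and -0.060 and -0.041 on mutant arrays 2 and 3. That of the skeletal muscle markers was -1.01, -0.36 and -0.38, beside -0.35, 0.16 and 0.15 on control arrays 1, 2 and 3. That of the epithelial markers was 1.07, 0.62 and 0.31 on the mutant arrays. The matrix substrate list was at -1.12, -0.046 and -0.086 on the mutant arrays and at -0.16, 0.083 and 0.11 on control arrays 1, 2 and 3. The part of these lists in the members' values was not tested.

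**Figure D4:**
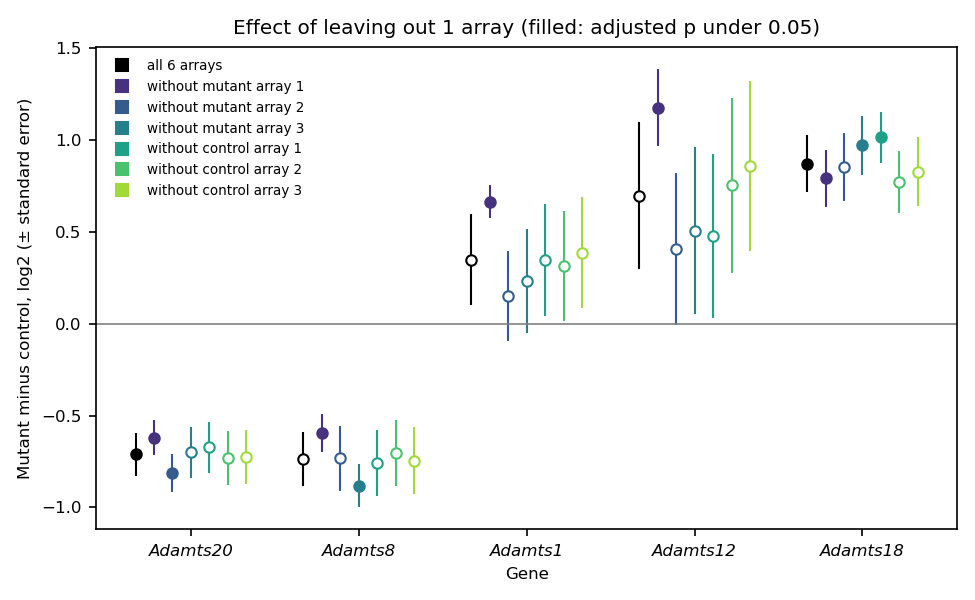
Log2 difference with its standard error (vertical axis) for 5 Adamts genes with all 6 arrays and with each array left out; filled points passed an adjusted p of 0.05. The sizes for Adamts18 stay between 0.77 and 1.02 and those for Adamts20 between -0.81 and -0.62. Among the fits shown, Adamts1 and Adamts12 pass only without mutant array 1.

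Related genes outside the 3 families were taken from lists of regulators, other proteases and substrates. Of 17 tested activators, inhibitors and other regulators of matrix proteases 1 rose and 1 fell, and of 11 other matrix proteases 1 rose (Htra1) and 0 fell. Of all tested genes 1.32% rose and 0.821% fell. An unadjusted p under 0.05 was found for 5 of the 17 and 5 of the 11 (limma), against 16.9% of all tested genes. Without mutant array 1, A2m, encoding the protease inhibitor alpha-2-macroglobulin (0.98, adjusted p = 0.0149), and the testican gene Spock2 (0.48, adjusted p = 0.0342) were also called among the regulators. Of all genes tested in that fit 4.91% were called (limma). Htra1, a secreted serine protease that cuts matrix proteins and can restrain TGF-beta signalling, was 10.28, 10.70 and 10.57 in the mutants and 9.24, 9.30 and 9.28 in the controls. The groups stood far apart, with a difference of 1.24 (standard error 0.12, adjusted p = 0.00772, limma), or 2.36-fold. Its call was lost without control arrays 2 or 3 (adjusted p = 0.0562 and 0.0551). Spock3, encoding testican-3, which can block membrane-type Mmps, rose by 0.78 (standard error 0.14, adjusted p = 0.0413). It was 7.69, 7.72 and 7.44 in the mutants and 6.89, 7.04 and 6.57 in the controls, and it lost the call without any 1 array other than mutant array 1 (adjusted p between 0.0513 and 0.158) and with averaged probe sets (0.43, adjusted p = 0.0716), sex as a covariate (0.0983), centred arrays (0.0510) or every probe set tested (0.0522). Thbs2, encoding thrombospondin 2, which helps to clear Mmp2, fell by 1.39 (adjusted p = 0.0177), and lost the call without mutant array 2 (0.0770) and control arrays 2 or 3 (0.108 and 0.107).

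None of the 10 Adam proteases and none of the 5 tested Adamts-like genes was called, where 2.14% of all tested genes were. An unadjusted p under 0.05 was found for 0 and 3 of them (limma), against 16.9% of all tested genes. Without mutant array 1, 1 of each list was called higher: Adam12 at 0.66 (adjusted p = 0.00996) and Adamtsl2 at 0.57 (adjusted p = 0.00938). In that fit 4.91% of all genes were called, in either direction. The smallest p values among the Adams were those of Adam19 (-0.64, adjusted p = 0.347, and -0.25 without mutant array 1) and Adam15 (0.12, adjusted p = 0.487). Among the Adamts-like genes, which resemble Adamts proteases without the catalytic part, Adamtsl3 gave -0.70 (adjusted p = 0.105) and Papln 0.46 (adjusted p = 0.190).

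Most substrates had negative differences. Of 21 tested matrix substrates 19 had a negative difference (90.5%, against 46.6% of all tested genes), and 16 (76.2%, against 45.6%) without mutant array 1. The median of -0.45 became -0.069 without that array. The mean level of the 24 listed substrates read overlapped between the groups (9.05 to 9.85 in the mutants and 9.77 to 10.00 in the controls). Relative to the control mean, their median on control array 1 (-0.16) lay below those on mutant arrays 2 and 3 (-0.046 and -0.086). Of the 21, 1 rose and 1 fell, where 1.32% and 0.821% of all tested genes did. The tenascin gene Tnc fell by 1.94 (adjusted p = 0.0317) and the proteoglycan gene Dcn rose by 0.65 (adjusted p = 0.0238). Both calls were lost with averaged probe sets (-1.29 and 0.41) and with sex as a covariate (adjusted p = 0.0659 and 0.0613). That of Tnc was also lost without mutant array 2 or any 1 control (adjusted p between 0.0778 and 0.162), and that of Dcn without any 1 array other than mutant array 1 (0.0513 to 0.128). Vcan, encoding versican, the substrate of Adamts20, Adamts9 and Adamts1, was 10.91, 11.46 and 11.96 in the mutants and 11.13, 11.53 and 11.56 in the controls. The groups overlapped, with a difference of 0.037 (adjusted p = 0.959), or 0.30 without mutant array 1.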

How the data were processed

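The authors deposited 1 table of log2 expression values for 6 Affymetrix mouse expression arrays, made with RMA per the submitters' processing notes (version not given in the sources used here). Differences, standard errors and p-values were computed in R 4.3.3 by the moderated test of limma 3.58.1, 2-sided, mutant minus control, over all 6 arrays, with Benjamini-Hochberg adjustment over all 13645 tested genes. Each gene was read by its brightest probe set with a single symbol in the platform annotation. The number of arrays, 3 per group, limits the precision; the median standard error was 0.117 log2.

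Members and lists were chosen with earlier results of these data known. Named members were those called or at an unadjusted p under 0.05, those called under an alternative, and a set of well-known members; of each pathway list, the called genes or else the 2 with the smallest p; of each marker list, the called genes. Marker levels are means over the list. Vcan was added after its values were seen. A2m, Spock2, Adam12 and Adamtsl2 fall outside this rule too, and are named because they were called without mutant array 1. Same-numbered mutant and control arrays deviated together (correlations 0.309, 0.105 and 0.206, each over the limit of 0.1). Unlike numbers 2 and 3 did so too (0.196 and 0.147), so these values do not settle whether the title numbers pair the arrays. The main test used no pairing, and a replicate block by title number was run as an alternative. Alternatives were other filters, probe set rules, normalizations, variance models, array weights, a replicate block, a sex covariate, other thresholds and each array left out. The script was tested on simulated data.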

Additional observations from a re-analysis of the deposited data

How the results depend on the processing

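With all arrays and no block, 292 of all tested genes were called, 1 member higher and 1 lower. Over all genes the count was 151 with the lowest 50% left out, 1034 with array quality weights, 135 with the sex covariate, 549 at an adjusted p under 0.1, and 15 to 670 with 1 array left out (15 without control array 2 and 670 without mutant array 1). Members called higher were 0 with averaged probe sets, 6 with array weights, 0 with sex, and 0 to 3 with 1 array left out. Members called lower were 2 with averaged probe sets, centred arrays, array weights or an adjusted p under 0.1, 0 with sex, and 0 to 2 with 1 array left out. Pairing the arrays with the replicate block gave 490 calls over all genes and 2 members lower, and changed no other member's call.

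Among the tested members and the genes followed under every alternative, the sign changed without mutant array 1 for Tgfbr2 (0.014), Adamts9 (0.016), Mmp14 (0.10), Timp2 (0.071), Adamts4 (0.0028), Adamts7 (0.19), Adamts10 (0.0029) and Mmp16 (0.14). Among the genes so followed it also changed for Mmp14 (0.030) and Timp2 (0.024) with array weights, for Mmp14 without control array 3 (0.011), and for Adam15 with averaged probe sets (-0.080). None of these passed the threshold either way. The lowest values with 1 array left out were -0.30 for Tgfbr2 (without mutant array 2) and -0.41 for Adamts9, -0.19 for Mmp14 and -0.25 for Timp2 (without mutant array 3). The cause was not tested. With 3 arrays a group, calls rest on single arrays, and genes under the filter have no test.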

Other observations

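Besides those of Adamts5, Adamts16, Mmp16, Mmp23 and Mmp24 above, probe sets other than the brightest gave some wider differences. Those of Adamts5, Mmp16, Mmp23, Mmp24 and the Timps are named after their values were seen. A dimmer probe set of Timp2 was 6.69, 6.97 and 7.28 in the mutants and 7.38, 7.40 and 7.82 in the controls, so that the groups did not overlap, with a log2 difference of -0.55, against -0.14 for the brightest. The 4 other Timp2 probe sets gave between -0.29 and 0.016. Among them, that at 10.39, 10.43 and 10.42 in the mutants and 10.50, 10.45 and 10.47 in the controls was lower on every mutant array, with a small difference of -0.060. A second Timp4 probe set, under the filter, was 4.83, 5.08 and 4.98 against 4.46, 4.46 and 4.54, a difference of 0.48, and was higher on every mutant array as the brightest was. Among members under the filter, Mmp3 was higher on every mutant array, with a difference of 0.18, and Mmp19, at 4.24, 4.18 and 4.20 against 4.27, 4.34 and 4.40, was lower on every mutant array, with a difference of -0.13.

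The spread among the mutants exceeded that among the controls for 21 of the 28 tested members, or 75%, and for 76.7% of all tested genes.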
